A study of Homo sapiens with 4 samples.

Results

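The 7 human sirtuin genes, SIRT1 to SIRT7, and NAMPT were followed as a set of 8 genes, out of 16489 gene names in the deposited tables. The members were chosen by name: SIRT1 and NAMPT are published targets of the microRNA miR-34a, and the other sirtuins stand beside them as the rest of the family. The cells were HEK293T, derived from human embryonic kidney and expressing SV40 large T antigen. There were 4 groups: RNA recovered with biotin-labelled miR-34a (miR-34a pulldown), RNA recovered with a control labelled NC (control pulldown), total RNA of cells given a miR-34a mimic, a synthetic duplex that supplies the microRNA (miR-34a mimic), and total RNA of cells given a control mimic (control mimic). Each group had 1 library, so the spread between cultures is unknown and p-values were not computed. The sources used here give no dose, no time after transfection and no identity of the NC control.

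Sirtuins are enzymes that consume NAD+ to remove acetyl and other acyl groups from proteins. SIRT1, SIRT6 and SIRT7 act mainly in the nucleus, SIRT2 mainly in the cytoplasm, and SIRT3, SIRT4 and SIRT5 in mitochondria. NAMPT makes nicotinamide mononucleotide from nicotinamide, the rate-limiting step of the salvage route to NAD+, and so supplies the cofactor that sirtuins use. A microRNA such as miR-34a pairs through its seed with sites in messenger RNAs and lowers their stability or translation.

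The mature strand that pairs with targets is shown because its seed, bases 2 to 8, defines the sites at which a direct target would be recovered or lowered. It is set beside miR-449a and miR-449b-5p, which carry the same seed. The other members of the miR-34 family, miR-34b-5p and miR-34c-5p, are not shown, and their seeds were not compared here. The sequences are those of RefSeq for GRCh38.p14, written 5′ to 3′ with the seed in capitals; miR-34a-5p comes from the minus strand at chr1:9151735-9151756.
hsa-miR-34a-5p: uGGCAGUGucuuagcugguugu
hsa-miR-449a: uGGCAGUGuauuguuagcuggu
hsa-miR-449b-5p: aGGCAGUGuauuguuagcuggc
The sequence complementary to this seed is CACUGCC. Target sites in the members' transcripts were not searched, since transcript sequences were not used here.

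The pulldown libraries were shallow, with 546180 reads for miR-34a and 306996 for the control over 10662 genes. The total RNA libraries held 42679778 mimic and 45493090 control mimic reads over 16448 genes. Genes with at least 20 reads in the miR-34a and control libraries together are called measured, which left 6253 genes in the pulldown and 14787 with the mimic. All 8 marker genes fixed for HEK293 lines were listed in total RNA, and 6 of them differed beyond counting error between the mimic and control mimic libraries. Of these, 4 were higher and 2 lower with the mimic, where 25.2% of all measured genes were higher and 23.2% lower. NEFL, a neurofilament gene, had a log2 ratio of 0.86 and IRS4, an insulin receptor substrate, -5.87, both farther from 0 than any member. Whether these shifts play a part in the members' ratios was not tested.

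Ratios are log2 values with miR-34a on top of its control, after scaling of the library totals with TMM (trimmed mean of M-values) factors. Brackets give the 95% exact binomial interval, and a gene is called higher or lower where this interval leaves out 0. Such intervals cover counting error between these libraries, not variation between cultures or pulldowns. A gene's reads are summed over its listed transcripts, and whether a read was counted for more than 1 transcript is not known. If it was, the intervals of genes with several transcripts are too narrow. Levels in CPM (reads of the gene per 1000000 listed reads) compare libraries for the same gene, and no order of levels between genes is drawn. The length basis of the deposited RPKM values could not be established. Per read the values implied a SIRT1 length 11.4 times and a NAMPT length 0.952 times that of SIRT7. The annotated gene spans of SIRT1 and NAMPT, which include introns, are 5.41 and 6.03 times that of SIRT7. Transcript lengths were not compared.

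In the pulldown, the question is which RNAs biotin-labelled miR-34a recovers beyond its control. Of the 8 members, 6 were listed and 5 were measured, and 0 were called higher and 0 lower. Among all measured genes 5.29% were higher and 5.36% lower, so at that share a count of 0 among 5 genes carries little weight. The calls over all genes were 331 higher and 335 lower, and the split depended on scaling: 405 and 252 on library totals, 443 and 229 with TMM factors from all listed genes, and 893 and 89 on deposited RPKM. The 5 measured members together had 101 miR-34a reads and 57 control reads. Their median log2 ratio was 0.22, against 0.0070 for all measured genes, and 3 lay above and 2 below 0. SIRT4 and SIRT5 were not analysed in the pulldown; the table used here lists no transcript with fewer than 1 control read.

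SIRT1, the nuclear deacetylase of FOXO factors and histones, lies on chromosome 10 (67884656 to 67918390) and had 12 reads in the miR-34a pulldown and 11 in the control pulldown. This corresponds to 22.0 CPM in the miR-34a pulldown and 35.8 in the control pulldown. The log2 ratio was -0.77 [-2.71 to 1.20]. An enrichment of SIRT1 was not detectable at this depth, and the interval's upper end corresponds to a 2.29-fold enrichment. With 23 reads in all and counts divided by 2 for the interval, only a split with a ratio of at least 11.8-fold would have been called higher. With undivided counts the interval was -2.08 to 0.55, and the smallest ratio that could be called was not computed. NAMPT, on chromosome 7 (106248298 to 106285888), had 7 reads in the miR-34a pulldown and 5 in the control pulldown. That is 12.8 CPM in the miR-34a pulldown against 16.3 in the control pulldown, and below the 20 reads required; the interval of its log2 ratio of -0.41 ran from -3.22 to 2.69. With 12 reads, the interval of every split with at least 1 read in each library reached 0 or below, so no such split could have been called higher.

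The other sirtuins were recovered in similarly small numbers. SIRT2, a tubulin and histone deacetylase on chromosome 19 (38878555 to 38899618), had 15 miR-34a and 14 control pulldown reads, a log2 ratio of -0.80 [-2.50 to 0.92]. SIRT3, the main mitochondrial deacetylase on chromosome 11 (215030 to 236931), had 17 miR-34a and 6 control pulldown reads, the highest ratio of the set at 0.60 [-1.42 to 3.14]. The sign of its ratio is opposite to that of SIRT1, but both intervals span 0. SIRT6, a chromatin deacetylase on chromosome 19 (4174109 to 4182563), had 18 miR-34a and 8 control pulldown reads and a ratio of 0.27 [-1.57 to 2.42]. SIRT7, a nucleolar deacetylase on chromosome 17 (81911939 to 81918176), was the best counted, with 39 miR-34a and 18 control pulldown reads and a ratio of 0.22 [-0.99 to 1.54]. None of the 10 pairs among these 5 genes differed beyond counting error. The difference between SIRT1 and SIRT3 was -1.38 [-4.51 to 1.49], so a sizeable difference in either direction could not be detected at this depth.

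**Figure D1:**
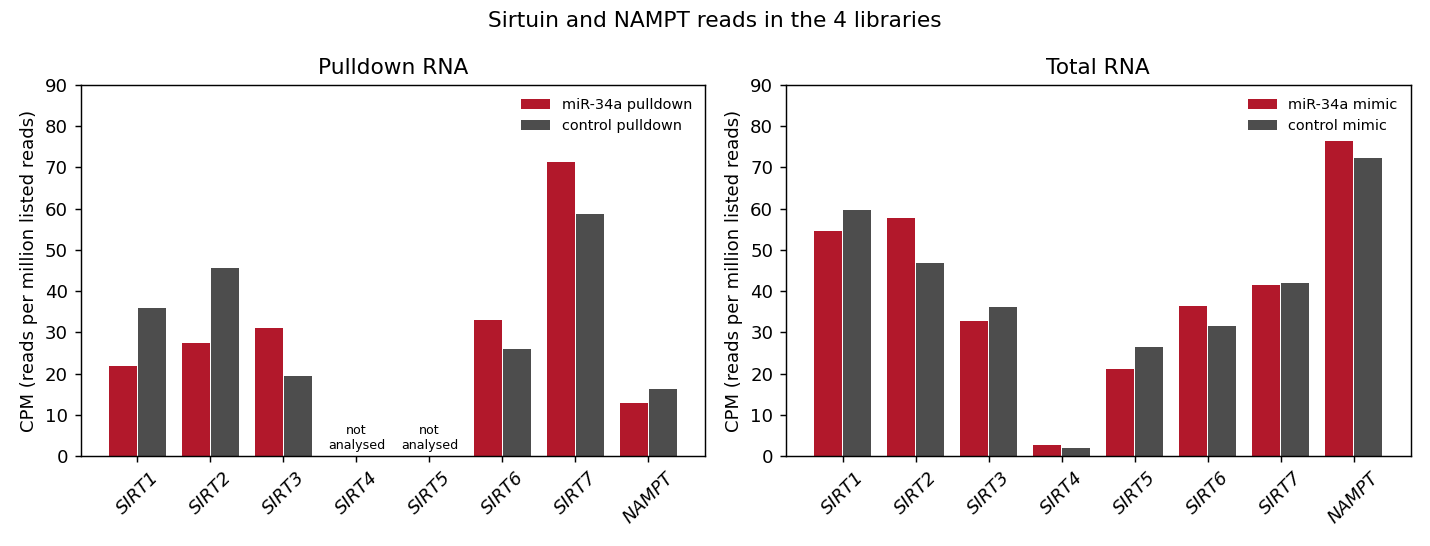
CPM (y axis, linear from 0) of each member in the pulldown libraries (left) and the total RNA libraries (right), with miR-34a in red and its control in grey and 1 library per bar. NAMPT stood at 12.8 and 16.3 CPM in the miR-34a and control pulldowns, on 7 and 5 reads. In the mimic and control mimic libraries it stood at 76.4 and 72.2. SIRT7 lay the other way, at 71.4 and 58.6 in the pulldowns and 41.6 and 42.0 in total RNA. SIRT4 and SIRT5 were not analysed in the pulldown.

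In total RNA, the question is which levels shift after miR-34a is added. In bulk RNA, a change in every cell and a larger change in some of the cells cannot be told apart. All 8 members were measured, with 202 to 6548 reads each. SIRT2, SIRT6 and NAMPT were higher, SIRT5 was lower, and SIRT1, SIRT3, SIRT4 and SIRT7 were not called. Among all measured genes 25.2% were higher and 23.2% lower, so 3 higher and 1 lower of 8 are too few to stand apart from that background. Over all genes the calls were 3721 higher and 3436 lower, or 365 and 11734 on deposited RPKM. The members' median was 0.06 and that of all measured genes -0.0037. Deposited RPKM moved the median of all genes to -0.65, and on that scale the ratios of SIRT2, SIRT4, SIRT6, SIRT7 and NAMPT were below 0; directions are therefore given relative to the median gene.

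SIRT1 had 2331 reads with the mimic and 2720 in the control mimic library, or 54.6 CPM with the mimic and 59.8 in the control. Its log2 ratio was -0.11 [-0.22 to 0.0067], a change of -7.16% that did not pass the counting interval. The interval's lower end corresponds to -14.2%. SIRT1 lay at percentile 34.3 of all measured genes, within the quartiles of -0.15 to 0.13 of the 3122 genes with a read number within 1.5 times its own. It was called lower on library totals (-0.13 [-0.24 to -0.017]) and where counts were not divided by 2 for the interval (-0.11 [-0.19 to -0.027]). NAMPT had 3262 reads with the mimic and 3286 in the control mimic library, or 76.4 CPM with the mimic and 72.2 in the control. Its ratio of 0.10 [0.0052 to 0.20], 7.54% higher, is a bare call that was lost on library totals (0.08 [-0.018 to 0.18]) and with a 99% interval. Overlapping genes could share reads, since no source used here states whether strand was counted: NAMPT overlaps NAMPT-AS1, SIRT3 overlaps RIC8A, SIRT4 overlaps small nuclear RNA genes that include RNU4-1 and RNU4-2, and SIRT5 overlaps LOC105374937, LOC105374938 and LOC124901263. NAMPT stayed within the quartiles of genes with like read numbers (-0.13 to 0.13).

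The members with the largest called changes were SIRT2, SIRT5 and SIRT6, rather than SIRT1 or NAMPT. SIRT2 had 2461 reads with the mimic and 2128 in the control mimic library, or 57.7 CPM with the mimic and 46.8 in the control, and rose by 25.3% (log2 ratio 0.33 [0.21 to 0.44]). On deposited RPKM its ratio was -0.32, or above the median gene of that scale. SIRT6 had 1557 reads with the mimic and 1438 in the control mimic library, and its ratio was 0.23 [0.082 to 0.38], or -0.41 on deposited RPKM. SIRT5, a mitochondrial desuccinylase and demalonylase on chromosome 6 (13574274 to 13615158), had 897 mimic and 1209 control mimic reads, or 21.0 CPM with the mimic and 26.6 in the control. It fell by 19.6% (log2 ratio -0.32 [-0.49 to -0.14]), at percentile 13.0 of all measured genes, and was below 0 under every scaling tried. All of these sizes lie inside the range that holds the middle 95% of genes with like read numbers, which ran from -0.41 to 0.59 for SIRT2 and from -0.51 to 0.80 for SIRT5.

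The remaining sirtuins were not called. SIRT3 had 1401 reads with the mimic and 1644 in the control mimic library, a ratio of -0.12 [-0.26 to 0.032]; it was called lower where counts were not divided by 2 (-0.12 [-0.22 to -0.012]). SIRT7 had 1776 mimic and 1911 control mimic reads and the ratio nearest to 0, at 0.0098 [-0.12 to 0.14]. SIRT4, a mitochondrial lipoamidase and ADP-ribosyltransferase on chromosome 12 (120291780 to 120313249), was sparse, with 111 reads with the mimic and 91 in the control mimic library. Its ratio of 0.40 [-0.19 to 1.0] was the highest of the set but had the widest interval.

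**Figure D2:**
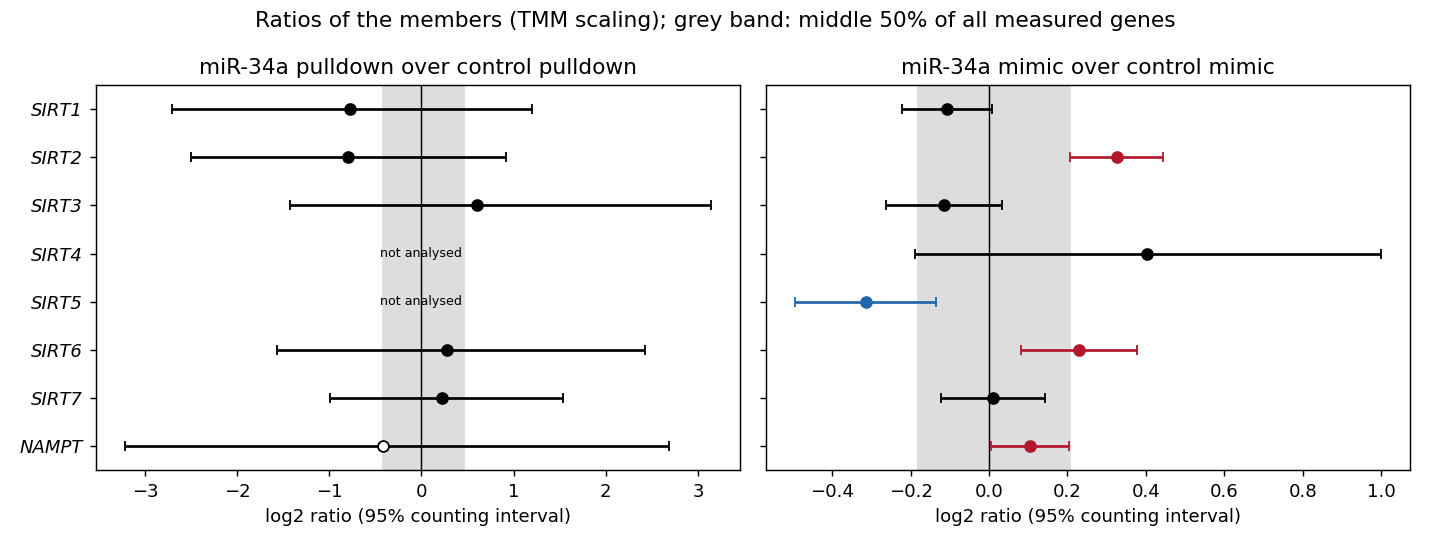
Log2 ratio (x axis) of each member for miR-34a over control in the pulldown (left) and in total RNA after the mimic (right), with 95% counting intervals; the grey band holds the middle 50% of all measured genes, red marks higher, blue lower, and the open circle a gene under 20 reads. All pulldown intervals span 0, whereas in total RNA SIRT2, SIRT6 and NAMPT lie above 0 and SIRT5 below; on deposited RPKM SIRT2, SIRT6 and NAMPT lie below 0.

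Ratios between members do not depend on scaling, since both genes come from the same libraries. Of 28 pairs in total RNA, 14 differed beyond the 95% counting interval and 8 beyond an interval widened for all 28 pairs. The share of such pairs among all genes was not computed, so neither count sets the members apart from other genes. Relative to SIRT2, SIRT1 had a log2 difference of -0.43 [-0.60 to -0.27]. SIRT2 stood above SIRT5 by 0.64 [0.42 to 0.86]. SIRT1 was also below SIRT6, with a difference of -0.34 [-0.52 to -0.15]. Both of these SIRT1 differences held with the widened interval, which ran from -0.69 to -0.17 against SIRT2 and from -0.63 to -0.038 against SIRT6. SIRT1 and NAMPT differed by -0.21 [-0.36 to -0.059], which is beyond the single interval and not among the 8. SIRT1 was not told apart from SIRT3 (0.0081 [-0.18 to 0.20]), SIRT5 (0.21 [-0.0040 to 0.42]), SIRT7 (-0.12 [-0.29 to 0.061]) or the sparse SIRT4 (-0.51 [-1.11 to 0.095]). These intervals, too, cover counting error alone, and reads counted for several transcripts of a gene would make them too narrow.

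The counts are listed per RefSeq transcript, so ratios can also be given within each gene. In total RNA the members had 17 listed transcripts, of which 4 were higher, 2 lower and 11 not called; over all measured transcripts 20% were higher and 17.5% lower. Transcripts of 1 gene share exons and may share reads, so likeness between their ratios is no independent check of the gene's ratio. With TMM scaling the transcripts of each gene had ratios of the same sign. For SIRT1, NM_012238 had 1396 reads with the mimic and 1669 in the control mimic library (-0.14 [-0.29 to 0.0046]), and NM_001142498 had 935 mimic and 1051 control mimic reads (-0.05 [-0.24 to 0.13]). Neither SIRT1 transcript was called. The 4 SIRT2 transcripts ranged from 0.20 to 0.51, and NM_030593, with 769 mimic and 585 control mimic reads, was the highest. The 4 SIRT5 transcripts ranged from -0.51 to -0.22, with NM_031244 (140 mimic and 216 control mimic reads) the lowest. For SIRT6, NM_016539 was higher at 0.31 [0.13 to 0.49] with 1068 mimic and 932 control mimic reads, whereas NM_001193285, with 489 mimic and 506 control mimic reads, was not called at 0.07 [-0.19 to 0.33]. That difference within SIRT6, -0.25 [-0.57 to 0.070] for NM_001193285 minus NM_016539, did not pass the interval, nor did any of the 15 pairs of transcripts within the 5 genes that have several. In the pulldown NM_012238 was the SIRT1 transcript listed. The authors' tables named for the UTR repeat the rows of SIRT2 and SIRT6; no source used here gives the criterion for those tables.

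**Figure D3:**
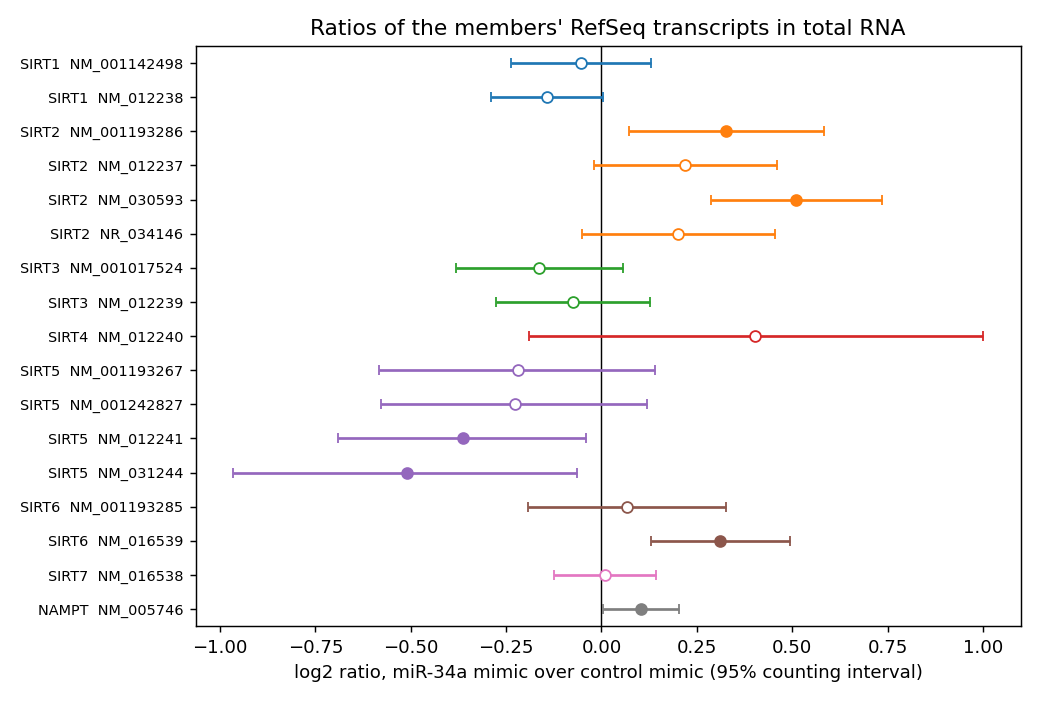
Log2 ratio (x axis) of miR-34a mimic over control mimic for each of the 17 listed RefSeq transcripts of the members, coloured by gene, with 95% counting intervals; filled points are beyond counting error. Transcripts of 1 gene, which may share reads, lie on the same side of 0. Ratios run from 0.20 to 0.51 for SIRT2 and from -0.51 to -0.22 for SIRT5. Deposited RPKM moves all points down alike.

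The other genes of NAD+ metabolism were described through 5 lists. Over all measured genes, the shares called higher and lower were 25.2% and 23.2% in total RNA, and 5.29% and 5.36% in the pulldown. These are the background for each count with TMM scaling and divided counts, and a share near them is not a result about a list. On deposited RPKM, 365 of 14787 were higher and 11734 lower in total RNA, and 893 of 6253 higher and 89 lower in the pulldown. With undivided counts these numbers were 4565 and 4470 in total RNA, and 753 and 774 in the pulldown. List counts at those 2 settings have these numbers as their background. Counts on deposited RPKM follow in each case, where all mimic ratios move down and all pulldown ratios up alike. Of 21 genes of NAD synthesis and transport, 18 were measured with the mimic, 3 higher and 3 lower, with a median of -0.04; on deposited RPKM the counts were 2 and 12, and with undivided counts 6 and 6. The largest changes were in NMRK2, a nicotinamide riboside kinase, which had 252 reads with the mimic and 46 in the control mimic library (2.57 [1.92 to 3.28]), and in the transporter gene SLC12A8 (170 mimic and 54 control mimic reads, 1.77). QPRT, which makes nicotinic acid mononucleotide from quinolinate, was at 0.40 [0.30 to 0.50], or -0.24 on deposited RPKM. NMNAT1, the nuclear enzyme that follows NAMPT in the salvage route, was not called, with 633 mimic and 786 control mimic reads (-0.20 [-0.42 to 0.020]), but was called lower on library totals (-0.22 [-0.44 to -0.0030]) and with undivided counts (-0.20 [-0.35 to -0.044]); it was named after its value was seen. In the pulldown 6 of these genes were measured and 0 were called in either direction, with a median of -0.16.

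Among 22 genes that consume NAD+ or clear nicotinamide, 19 were measured with the mimic, 2 higher and 4 lower (median -0.06), or 1 and 16 on deposited RPKM. NNMT, which methylates nicotinamide, had 30 reads with the mimic and 6 in the control mimic library (2.44 [0.62 to 4.87]), and NT5E, a cell-surface nucleotidase, had 154 mimic and 60 control mimic reads (1.48). NUDT12, an NADH-cleaving hydrolase, was lower at -0.40 [-0.59 to -0.20]. In the pulldown the median over 8 measured genes was 0.78, against 0.0070 for all measured genes. Several of the 8 had few reads, such as PARP3 with 20 miR-34a and 2 control pulldown reads (2.42 [-0.39 to 7.86]), which was not called. TIPARP and TNKS lay below 0, at -1.04 [-3.12 to 1.01] and -1.18 [-2.86 to 0.45], also without a call. Of the 8 genes, 2 were higher and 0 lower. These counts were 4 and 0 on deposited RPKM, and 5 and 1 with undivided counts. They were PARP1, the main DNA-damage poly(ADP-ribose) polymerase, with 736 miR-34a and 252 control pulldown reads (0.65 [0.35 to 0.95]), and PARP4 with 99 miR-34a and 19 control pulldown reads (1.48 [0.47 to 2.66]).

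SIRT1 regulators and substrates numbered 29, all measured with the mimic, of which 6 were higher and 9 lower (median -0.06), or 0 and 28 on deposited RPKM. FOXO3 was lower at -0.42 [-0.50 to -0.33], as was the DNA break repair gene NBN at -0.40 [-0.52 to -0.28]. In the pulldown 3 of 19 were higher and 1 lower (median -0.04), or 4 and 0 on deposited RPKM. The higher genes were FOXO1 (1.56 [0.46 to 2.86]; 88 miR-34a and 16 control pulldown reads), the kinase gene STK11 (0.90 [0.0039 to 1.89]), a call lost with DESeq2 size factors, and the acetyltransferase gene EP300 (0.71 [0.23 to 1.20]). The lower gene was CCAR2, the inhibitor of SIRT1 also known as DBC1, at -0.54 [-1.05 to -0.026], named after its value was seen; its call was lost under 7 of the 9 alternatives, and its ratio for the transcript with most reads was -0.30 [-1.02 to 0.45].

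Substrates of the mitochondrial sirtuins numbered 25, with 23 measured with the mimic, 8 higher and 7 lower (median -0.04), or 0 and 22 on deposited RPKM. The protease LONP1 was at 0.68 [0.61 to 0.74], the fatty acid oxidation enzyme ACADVL at 0.53 and the serine hydroxymethyltransferase SHMT2 at 0.42; on deposited RPKM they stood at 0.035, -0.11 and -0.23. In the pulldown 1 of 20 was higher, HADHA (0.81 [0.072 to 1.61]), and 1 lower, GLUD1 (-0.77 [-1.33 to -0.21]); the counts were 6 and 0 on deposited RPKM and 3 and 4 with undivided counts. The zinc-dependent histone deacetylases, an unrelated family that also removes acetyl groups from lysine but without NAD+, had 4 higher and 3 lower of 11 with the mimic (median -0.02), or 0 and 11 on deposited RPKM. HDAC5 was at 0.52, HDAC7 at 0.46 and HDAC11 at 0.35, all 3 below 0 on deposited RPKM. In the pulldown 2 of 9 were higher and 1 lower (median 0.39): HDAC4, with 74 miR-34a and 4 control pulldown reads (3.31 [1.36 to 6.41]), HDAC3 (1.03 [0.025 to 2.17]), and on the lower side HDAC7 (-1.07 [-2.14 to -0.014]). The HDAC7 call was lost on library totals and deposited RPKM, with TMM factors from all listed genes and with a 99% interval, and for the transcript with most reads its ratio was -0.15 [-1.61 to 1.44]. The counts were 5 and 0 on deposited RPKM, and 4 and 2 with undivided counts.

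**Figure D4:**
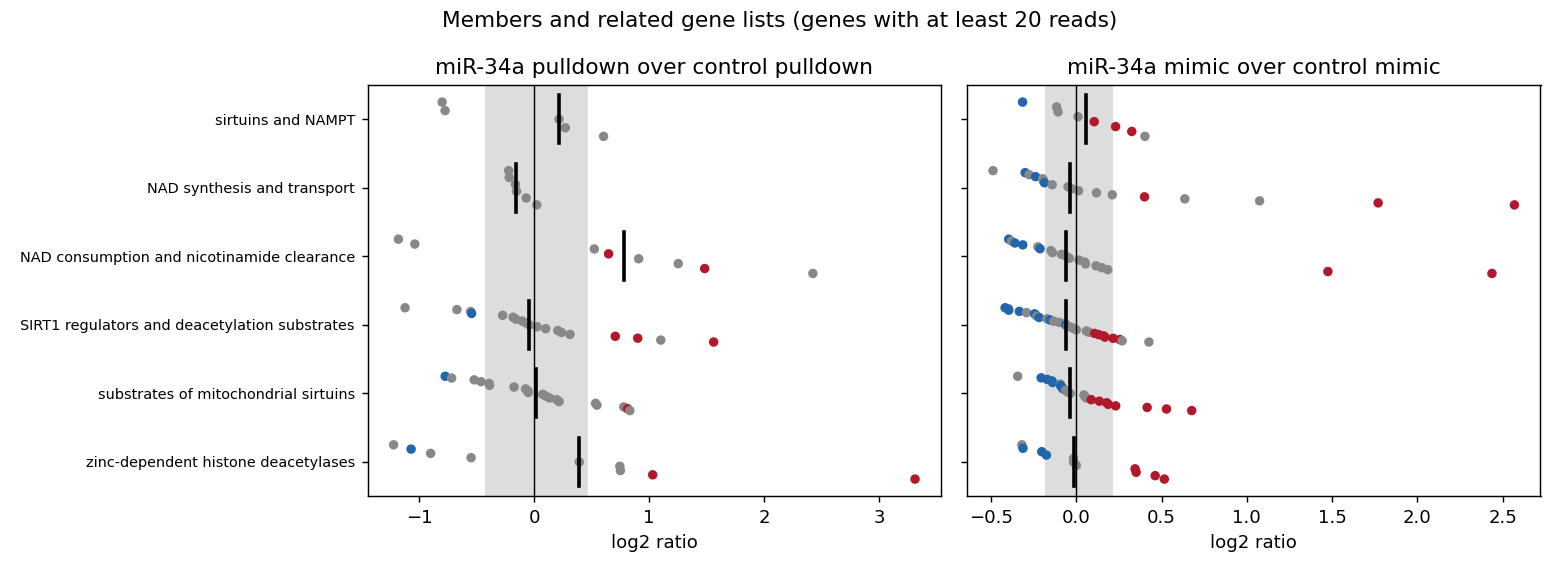
Log2 ratios (x axis) of the measured members and of the measured genes of 5 related lists, in the pulldown (left) and in total RNA (right); each point is a gene, red beyond counting error higher and blue lower, black bars are medians and the grey band holds the middle 50% of all measured genes. In total RNA the list medians lie between -0.06 and 0.06 with TMM scaling, all within the band; deposited RPKM moves every point down alike.

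Over both comparisons, the genes whose pair of log2 ratios lay nearest to that of SIRT1, by Euclidean distance among 6239 genes measured in both, were LENG8, RAB11A, ATXN7L2, BYSL and STRADA, at distances of 0.017 to 0.032. LENG8 stood at -0.76 in the pulldown and -0.10 with the mimic. In all, 74 genes lay within 0.1 of SIRT1. The pulldown ratio of SIRT1 rests on 12 miR-34a and 11 control reads, with an interval of -2.71 to 1.20. These distances lie far inside that interval, so which genes come out nearest carries little weight. NAMPT was not measured in the pulldown and was not compared in this way.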

How the data were processed

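Bowtie2, edgeR and the build hg38 are named in the submitters' processing notes, without versions or roles. The authors deposited read counts per RefSeq transcript and, beside each count, an RPKM value; per the file headers the columns are reads and RPKM. The RPKM columns served as an alternative scaling. Column names were tied to libraries through the sheet in which they stand. A gene's reads are the sum over its listed transcripts. Totals of all listed reads were multiplied by TMM factors from genes with at least 20 reads (edgeR 4.0.16, R 4.3.3). Each ratio has a 95% Clopper-Pearson interval, conditional on the reads of both libraries (scipy 1.17.1, Python 3.11.15), computed on counts divided by 2. For counts of 2 to 9 reads of genes listed with a single transcript, 96.3% of mimic and 96.0% of control mimic counts were even. In the miR-34a and control pulldowns these shares were 61.7% and 73.5%. Counting both ends of a read pair would give such an excess. For counts of 10 to 49 reads the even shares were 83.6% with the mimic and 81.9% in the control mimic library. In the miR-34a and control pulldowns they were 51.0% and 52.3%, with little excess. Division by 2 may therefore make the pulldown intervals too wide. Intervals for ratios between genes are exact conditional odds ratio intervals. A library at 0 was set to 3 reads. The interval code was tested on simulated data.

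Named genes were all members, up to 3 genes per list and comparison that were beyond counting error and farthest from 0, and the 5 nearest genes to SIRT1. Some genes that met this rule are not reported here. The members and lists were chosen with earlier results of these data known. Accessions were matched to GRCh38.p14 RefSeq genes (98.8% of pulldown and 98.3% of mimic transcripts). Alternatives were library totals, DESeq2 1.42.0 size factors, deposited RPKM, undivided counts, a 99% interval, the transcript with most reads, no read minimum, a minimum of 100 reads and TMM factors from all listed genes.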

Additional observations from a re-analysis of the deposited data

How the results depend on the processing

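No paired analysis was possible because each group has 1 library, and for the same reason no replicate could be left out and no DESeq2 test was run. Each of the 5 measured members of the pulldown kept its direction and stayed without a call under all alternatives that gave it a value; those values for SIRT1 ran from -0.80 to -0.40. At a minimum of 100 reads no member was left in the pulldown. TMM factors from all listed genes raised the pulldown ratios, SIRT1 to -0.67 and SIRT7 to 0.32. With the mimic, deposited RPKM put SIRT2 at -0.32, SIRT4 at -0.24, SIRT6 at -0.41, SIRT7 at -0.63 and NAMPT at -0.54, and gave SIRT1 at -0.75 and SIRT3 at -0.76 a call, so that 0 members were higher and 7 lower; all genes move alike on that scale. It also put QPRT at -0.24, ACADVL at -0.11, SHMT2 at -0.23, HDAC5 at -0.13, HDAC7 at -0.18 and HDAC11 at -0.29. On library totals SIRT7 was at -0.014, NAMPT at 0.082 without a call and SIRT1 at -0.13 with one, which made 2 members lower. Undivided counts called SIRT1 (-0.11) and SIRT3 (-0.12), making 3 lower. Of all 14787 genes measured with the mimic, 4470 were lower with undivided counts, 3921 on library totals and 11734 on deposited RPKM. With the 99% interval NAMPT, at 0.10, was not called. Pairs of members that differed with the mimic numbered 11 to 18 over the alternatives, against 14. At least 1 alternative ended the pulldown calls of STK11, HADHA, GLUD1, CCAR2, HDAC3 and HDAC7 and the mimic calls of NNMT, LONP1 and HDAC11. The alternatives for pairs and for the lists, and the TMM factors from all listed genes with the 20-read minimum kept, were chosen after seeing the data. Of all genes, undivided counts called 753 higher and 774 lower in the pulldown, and the 99% interval 164 and 148. Depth and the division of counts by 2 limit calls in the pulldown. On divided counts, SIRT6 at 26 reads would have needed a ratio of at least 13.4-fold to be called higher.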
